A study of Mus musculus with 24 samples.

Results

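Astrocytes are the glial cells that tile the brain between neurons and blood vessels. They take up glutamate released at synapses and convert it to glutamine, pass ions and metabolites to each other through gap junctions, and line vessels with endfeet rich in water channels. The 10 genes described here are commonly used to mark these cells: Gfap, the intermediate filament protein of astrocytes; Aqp4, the water channel of the endfeet; Aldh1l1, a folate enzyme; Slc1a2 and Slc1a3, the glutamate transporters GLT-1 and GLAST; Gja1 and Gjb6, the gap junction proteins Cx43 and Cx30; Glul, glutamine synthetase; S100b, a calcium-binding protein; and Sox9, a transcription factor of the astrocyte lineage. Some of them are also expressed by other cells of the brain. Members were all probe sets (sets of short oligonucleotides that read 1 stretch of a transcript) that the array annotation gives to 1 of these symbols and to no other gene, which gave 33 of the 45101 probe sets on the array.

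The right cerebral hemisphere was taken from 24 female mice of strain NMR-1. Mice began at 8 weeks of age and spent 2 weeks on 1 of 4 diets, with 6 mice per diet. The chimpanzee diet was vegetables, fruit and yogurt. The cafeteria diet was cooked food from a staff canteen, the fast food diet came from McDonald's, and the pellet diet was the standard mouse food on which all mice had been raised. The labels give no genotype other than the strain. Each mouse gave 1 Affymetrix Mouse Genome 430 2.0 array, and the labels place 3 arrays of each diet in each of 2 processing batches. The study asked whether diet changes gene expression, above all between the human diets (cafeteria and fast food) and the chimpanzee diet. A level below is the authors' log2 expression value of a probe set, and a difference of 1 between levels is a doubling. Levels were compared between arrays for the same probe set only, since probe sets differ in how brightly they bind. In a whole hemisphere, fewer astrocytes and less RNA per astrocyte cannot be told apart.

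Some arrays stood apart. On the chimpanzee, cafeteria and fast food diets, the 18S ribosomal RNA level lay between 5.87 and 6.58 in batch 1 and between 4.88 and 5.15 in batch 2. On pellets it ran the other way, between 4.96 and 5.51 in batch 1 and between 5.92 and 6.42 in batch 2. The SD over all probe sets of an array was also turned on pellets. It was 1.81 to 2.02 in batch 1 and 2.01 to 2.06 in batch 2 on the other diets, and 1.95 to 2.04 and 1.58 to 1.84 on pellets. Replicate 1 of pellet batch 2 had the SD of 1.58 and a median correlation of 0.892 with the other arrays, where every other array had at least 0.980. The batch difference was therefore taken on pellets and on the other 3 diets separately, and the main results that rest on the pellet arrays are also given without that array, without any pellet array or with the pellet batch labels exchanged.

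All 10 genes were measured. Of the 33 probe sets, 27 had a mean level over the 24 arrays at or above 4.07, the median of the array, and were tested among 21996 probe sets. The nearest to that floor were a probe set of Slc1a2 inside it, at 4.12, and 1 of Gja1 outside it, at 3.97. The probe sets below it were 2 of Slc1a3 and 1 each of Aldh1l1, Slc1a2, Gja1 and Sox9. As the main probe set of each gene, the one with the highest mean was taken. Of these, Sox9 lay nearest to the floor, with a mean of 5.07. Probe sets whose names end in x_at or s_at can also bind related transcripts, which concerns 2 of Gfap, 1 of Slc1a3 and 3 of the 5 tested of Gja1.

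The promoter letters of 3 members are shown as examples. On the 3 diets other than pellets, Gja1 and Slc1a3 held the tested member probe sets whose levels did not overlap between batches. Gfap held none that was called between batches in the values as deposited. Aldh1l1, Gjb6 and S100b also held none with all arrays in the fit. Whether promoter letters bear on the batch differences was not tested. Each line gives the 250 bases before the annotated start, 5′ to 3′ on the gene's strand, from RefSeq (build GRCm38.p6). The gene Gja1 lies on the plus strand of chromosome 10 from 56377300 to 56390419, with the shown bases at chr10:56377050-56377299. Slc1a3 lies on the minus strand of chromosome 15 from 8634124 to 8710807, with the shown bases at chr15:8710808-8711057, and Gfap on the minus strand of chromosome 11 from 102887336 to 102897200, with the shown bases at chr11:102897201-102897450. Capitals mark matches on either strand to 6 searched motifs.
Gja1: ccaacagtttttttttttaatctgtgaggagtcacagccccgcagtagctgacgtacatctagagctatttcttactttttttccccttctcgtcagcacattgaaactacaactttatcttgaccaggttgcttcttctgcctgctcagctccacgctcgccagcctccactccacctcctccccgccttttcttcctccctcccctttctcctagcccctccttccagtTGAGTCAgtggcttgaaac
Slc1a3: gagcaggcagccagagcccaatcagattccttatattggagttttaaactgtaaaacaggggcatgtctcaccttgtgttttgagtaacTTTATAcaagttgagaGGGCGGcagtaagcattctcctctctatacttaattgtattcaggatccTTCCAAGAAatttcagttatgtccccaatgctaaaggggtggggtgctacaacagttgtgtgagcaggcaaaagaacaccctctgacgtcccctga
Gfap: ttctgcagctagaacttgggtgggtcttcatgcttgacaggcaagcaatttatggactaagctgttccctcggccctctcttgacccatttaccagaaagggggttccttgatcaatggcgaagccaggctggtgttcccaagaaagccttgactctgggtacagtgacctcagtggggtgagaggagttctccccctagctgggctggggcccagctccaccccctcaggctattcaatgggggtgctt
The motifs searched were TGANTCA, which AP-1 binds, TTCNNNGAA for STAT factors, TATAAA of the core promoter, GGGCGG as the GC box, TTGGCA for NFI and ACAATG for SOX factors. In Gja1 the capitals are an AP-1 match 13 to 19 bases before the start, a motif that 6.7% of all 32851 promoters held in the same window. Those in Slc1a3 are a STAT match 88 to 96 bases before the start (7.0% of all promoters), a GC box (32.7%) and TATAAA on the minus strand (12.4%). Gfap held none of these letters in this window. Among the 8 members whose promoter entry was used, all but Aqp4 and Sox9, a GC box was also in Aldh1l1 and Glul, the NFI letters only in S100b (12.3% of all promoters), and the SOX letters in none (10.7%). For Slc1a2 the window searched, chr2:102706188-102706437, lies inside the gene, which runs from 102658239 to 102790784.

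No astrocyte probe set passed the test for diet. In the test of 4 diets, limma with batch as a term called 0 of the 27 (1 had an unadjusted p under 0.05), where a call needs an adjusted p (Benjamini-Hochberg, 21996 probe sets) under 0.05, which 0.0455% of all reached. Between human and chimpanzee diets it called 0 of 27 (2 with an unadjusted p under 0.05; 0% of all probe sets called), and between pellets and the mean of the other diets 0 of 27 (3 with an unadjusted p under 0.05; 0.0182% called). The 6 pairs of diets gave 0 member calls each, against 0.00455% of all probe sets called between pellets and the chimpanzee diet, 0.0409% between pellets and fast food, and 0% in the other 4 pairs. Unadjusted p-values under 0.05 in limma came from 5 of the 27 between pellets and fast food, beside 4734 of all 21996 probe sets. Between fast food and the chimpanzee diet they came from 2 (404 of all), and between pellets and the chimpanzee diet from 2 (2099). Pellets against the cafeteria diet gave 1 (1204 of all), and the remaining pairs 0 (321 and 170). Over all probe sets the test of 4 diets gave 1189, human against chimpanzee diets 418 and pellets against the others 4943. When its p-values were adjusted in the same way, the methods' two-way test gave 0 calls among the 27 in each of these comparisons except for 1 between pellets and fast food. The shares of all probe sets that the two-way test called are not given here, so that this call cannot be set beside them. A p that misses the threshold does not show equal levels. For the human diets minus the chimpanzee diet, the 95% intervals of the 27 differences reached from −0.60 to 1.10. The median difference of the 27 was 0.14, with 20 above 0, beside a median of 0.01 and 55.5% above 0 over all tested probe sets. Genes with several probe sets count repeatedly there, and the 10 main probe sets alone gave a median of 0.05, with 7 above 0.

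**Figure D1:**
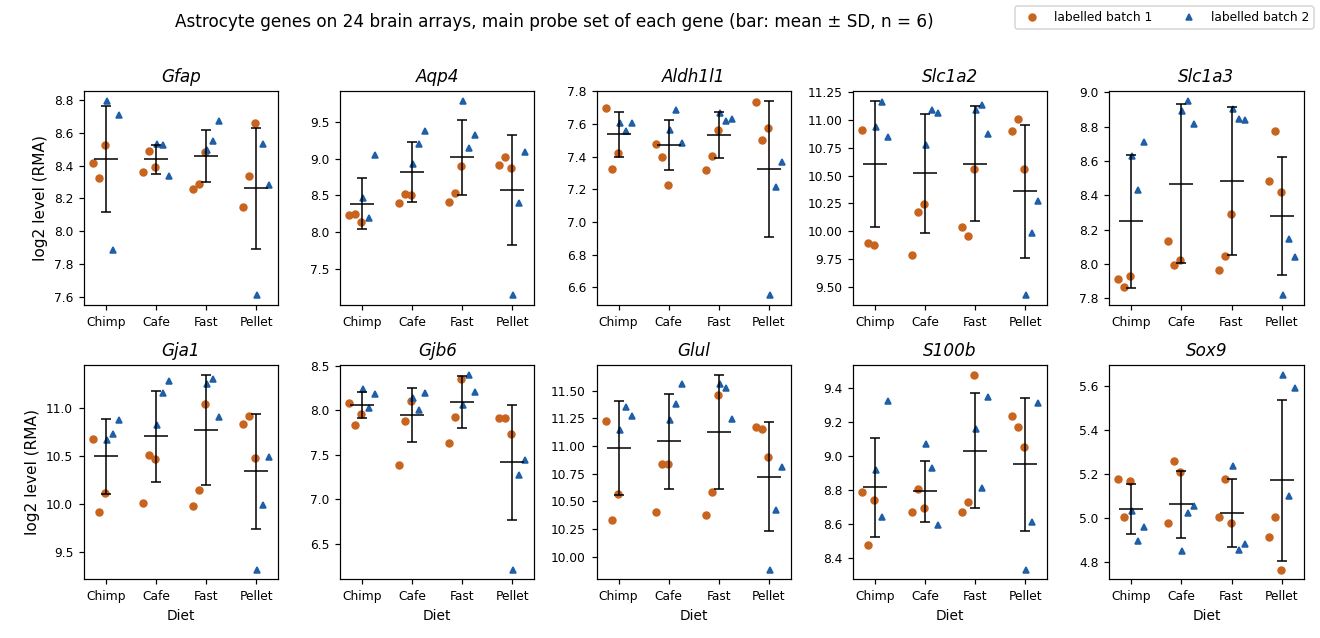
Log2 level of the main probe set of each of 10 astrocyte genes on 24 brain arrays (y axis; each panel has its own scale), by diet (x axis). Points are single mice, circles from labelled batch 1 and triangles from labelled batch 2, and the bar gives the mean ± SD of 6 mice. For Slc1a3 the triangles lie above the circles on the chimpanzee, cafeteria and fast food diets, from 8.43 to 8.95 against 7.87 to 8.29, and below them on pellets.

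Gfap, the filament protein whose level is widely read as a sign of astrocyte reactivity, was nearly level across the 3 changed diets. Its main probe set had a lowest, median and highest level of 7.89, 8.47 and 8.80 in chimpanzee mice, of 8.34, 8.44 and 8.53 in cafeteria mice and of 8.26, 8.49 and 8.67 in fast food mice. Pellet mice ranged more widely, from 7.61 over 8.31 to 8.66, and all 4 diets overlapped. Means were 8.44 ± 0.32, 8.44 ± 0.09, 8.46 ± 0.16 and 8.26 ± 0.37 in the same order (SD, n = 6). The human diets differed from the chimpanzee diet by 0.01 (SE 0.13, 95% interval −0.27 to 0.28), a value whose sign turned under quantile normalization and under median centring. The other probe sets of Gfap gave 0.04 and 0.19, with SE 0.12 and 0.27.

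Aqp4, the endfoot water channel, had its highest mean on fast food. Its main probe set read 8.14, 8.24 and 9.05 as lowest, median and highest of the chimpanzee mice. On the cafeteria diet it read 8.40, 8.72 and 9.38, and on fast food 8.42, 9.02 and 9.79. Of the 6 chimpanzee mice, 1 stood well above the rest, and the ranges of the 3 diets overlapped. On pellets the levels were 7.14, 8.90 and 9.09, where the low value is the pellet array that stood apart. The means were 9.02 ± 0.51 on fast food, 8.82 ± 0.41 on the cafeteria diet, 8.57 ± 0.74 on pellets and 8.39 ± 0.34 on the chimpanzee diet (SD, n = 6), and no neighbours in this order differed beyond their spread. The human diets were 0.53 above the chimpanzee diet (SE 0.24, 95% interval 0.03 to 1.03), a ratio of 1.44, which had an unadjusted p of 0.037 in limma and an adjusted p of 1.00. Without replicate 1 of pellet batch 2 the difference stayed at 0.53, with SE 0.15 (unadjusted p = 0.0018 and adjusted p = 0.69 in limma; 0.0182% of all probe sets called). After quantile normalization it was 0.49 (SE 0.15, unadjusted p = 0.0040 and adjusted p = 0.93 in limma; 0.00455% called).

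The other probe sets of Aqp4 were on the same side, at 0.39 (SE 0.20) and 0.42 (SE 0.21), without passing the test either. Within labelled batch 1 the 3 probe sets gave 0.34, 0.34 and −0.03 (0.05% of all probe sets called), and within batch 2 they gave 0.44, 0.72 and 0.87 (0% called). The value for 1447745_at in batch 2 had an adjusted p of 0.23 and differed from that in batch 1 by 0.90 (SE 0.24, adjusted p = 1.00), so that the difference between batches did not pass the test. Probe sets of 1 gene read the same RNA and are not separate evidence.

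The glutamate transporters and glutamine synthetase differed little in mean between diets, beside wide spreads within each diet. Slc1a2, which clears most synaptic glutamate in the forebrain, read 9.87, 10.88 and 11.16 in chimpanzee mice as lowest, median and highest. It read 9.78, 10.51 and 11.09 on the cafeteria diet and 9.95, 10.72 and 11.14 on fast food. The pellet mice lay at 9.42, 10.42 and 11.01, within much the same range. In order, the means of the fast food, chimpanzee, cafeteria and pellet mice were 10.61 ± 0.52, 10.60 ± 0.57, 10.52 ± 0.53 and 10.36 ± 0.60 (SD, n = 6), with each neighbour far inside the spread of the next. A further probe set of Slc1a2, 1439940_at, was the other member with an unadjusted p under 0.05 between the human and chimpanzee diets in the values as deposited (−0.31, SE 0.14, adjusted p = 1.00 in limma). After quantile normalization its unadjusted p in limma was 0.066. Among the main probe sets, those of Aqp4, Gja1 (0.23, unadjusted p = 0.0079) and Slc1a3 (0.20, unadjusted p = 0.033) then lay under 0.05. No member was called (0.00455% of all), and the share of all probe sets with such an unadjusted p is not given here.

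Slc1a3, the transporter that is also strong in radial and Bergmann glia, had means of 8.48 ± 0.43 on fast food, 8.47 ± 0.46 on the cafeteria diet, 8.28 ± 0.34 on pellets and 8.25 ± 0.39 on the chimpanzee diet (SD, n = 6). Glul, which turns glutamate to glutamine, had 11.13 ± 0.51, 11.04 ± 0.43, 10.72 ± 0.49 and 10.98 ± 0.43 in the same order of diets. Neither gene had neighbours in its order that differed beyond their spread. Differences of the human diets from the chimpanzee diet were 0.23 (SE 0.16) for Slc1a3 and 0.10 (SE 0.21) for Glul.

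Gjb6, the connexin Cx30, had its lowest mean on pellets, without passing the test. It read 7.84, 8.06 and 8.24 as lowest, median and highest in chimpanzee mice. Levels were 7.38, 8.05 and 8.19 on the cafeteria diet and 7.63, 8.14 and 8.40 on fast food. On pellets it read 6.21, 7.59 and 7.92, with 3 mice of batch 1 at 7.74, 7.92 and 7.92 and 3 of batch 2 at 6.21, 7.28 and 7.45. The batch 1 pellet mice thus lay among the other diets, and those of batch 2 below all but 1 of the other mice. In the same order of diets as for Slc1a2, means were 8.10 ± 0.29, 8.06 ± 0.15, 7.95 ± 0.30 and 7.42 ± 0.65 (SD, n = 6). Pellets were lower than the mean of the other diets by a difference of −0.62 (SE 0.18, 95% interval −0.99 to −0.25; unadjusted p = 0.0022 and adjusted p = 0.22 in limma), the smallest unadjusted p among the members in this comparison.

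That value depended on the labels and on 1 array. With the pellet batch labels exchanged, the difference of Gjb6 stayed at −0.62, with SE 0.14 and an adjusted p of 0.034, in a comparison that then called 15.1% of all probe sets and 3 of the 27 members. The other calls were 1426340_at of Slc1a3, at −0.36 (adjusted p = 0.048), and 1438945_x_at of Gja1, at −0.41 (adjusted p = 0.0498). Without replicate 1 of pellet batch 2 and with the labels as given, Gjb6 differed by −0.37 (SE 0.13, adjusted p = 0.91; 0.00909% of all probe sets called). Within batch 1 the difference was −0.05 (SE 0.19, adjusted p = 0.91) and within batch 2 it was −1.19 (SE 0.19, adjusted p = 5.1e-05), where 73.4% of all probe sets and 20 of the 27 members were called, against 2.32% and 2 members in batch 1.

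Gja1, the connexin Cx43, had means of 10.77 ± 0.57 on fast food, 10.70 ± 0.47 on the cafeteria diet, 10.49 ± 0.38 on the chimpanzee diet and 10.34 ± 0.60 on pellets (SD, n = 6), in overlapping ranges. Its 5 tested probe sets gave 0.24 to 0.37 for the human diets minus the chimpanzee diet and −0.44 to −0.32 for pellets minus the others, without a call. Aldh1l1, the folate enzyme, had means of 7.54 ± 0.14, 7.53 ± 0.14, 7.47 ± 0.15 and 7.32 ± 0.42 on the chimpanzee, fast food, cafeteria and pellet diets. S100b had 9.03 ± 0.34 on fast food, 8.95 ± 0.39 on pellets, 8.81 ± 0.29 on the chimpanzee diet and 8.79 ± 0.18 on the cafeteria diet. Sox9, the transcription factor, had 5.17 ± 0.37 on pellets, 5.06 ± 0.15 on the cafeteria diet, 5.04 ± 0.11 on the chimpanzee diet and 5.02 ± 0.15 on fast food (SD, n = 6 throughout). Neighbours in these orders did not differ beyond their spread.

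**Figure D2:**
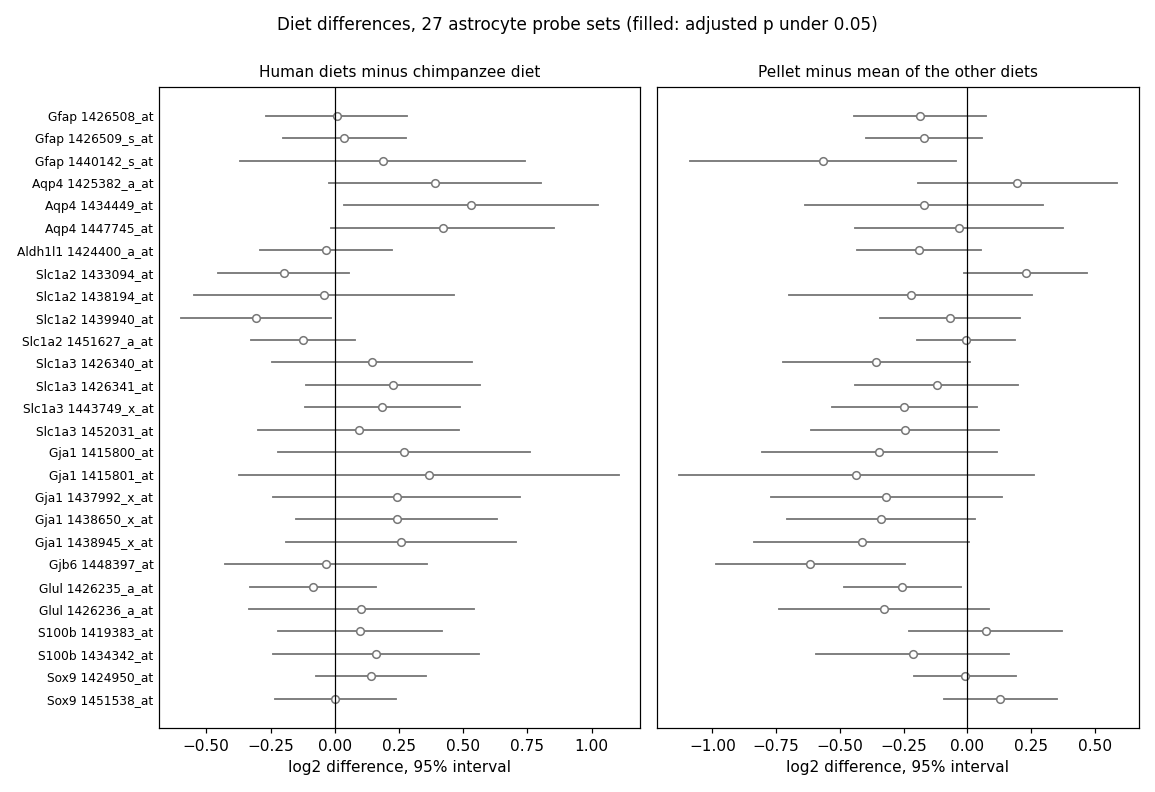
Log2 difference with its 95% interval from limma (x axis) for 27 astrocyte probe sets (y axis), for the human diets minus the chimpanzee diet on the left and pellets minus the mean of the other diets on the right. All circles are open since 0 of 27 passed at an adjusted p under 0.05 on either side. The 3 Aqp4 probe sets lie at 0.39 to 0.53 on the left, and Gjb6 at −0.62 on the right.

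Many of these probe sets differed between the labelled batches. On the 3 diets other than pellets, 15 of the 27 were called between batches, 14 of them higher in batch 2 and 1 lower. Among all tested probe sets 36.4% were called, 31.1% higher and 5.24% lower, and the median difference was 0.15 over all and 0.37 over the members. In batch 2, all 5 tested probe sets of Gja1, all 3 of Aqp4, 3 of the 4 of Slc1a3 and 1 each of Glul, Slc1a2 and Sox9 rose, and the 3 probe sets of Gfap did not pass, at −0.07, 0.07 and 0.11. After quantile normalization 1 of them, 1426509_s_at, was called, lower in batch 2 on these diets at −0.34 (adjusted p = 0.011) and higher on pellets at 0.44 (adjusted p = 0.034). Batches did not overlap, 9 mice against 9, for 3 of the 27 probe sets, 1 of Gja1 and 2 of Slc1a3, and for 7.37% of all. The methods name quantile normalization, but the arrays as deposited did not share 1 distribution, as their SD of 1.58 to 2.06 shows. Quantile normalization over the 24 arrays moved the median difference of all probe sets from 0.15 to −0.01, and the member calls to 6 higher and 3 lower (23.2% of all called), of which 7 were calls of the same sign before it.

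For Slc1a3, the main probe set read 7.91, 7.87 and 7.93 on the 3 chimpanzee mice of batch 1 and 8.63, 8.43 and 8.71 on those of batch 2. The cafeteria mice read 8.13, 7.99 and 8.02, then 8.89, 8.95 and 8.82, and the fast food mice 7.96, 8.05 and 8.29, then 8.90, 8.84 and 8.84. Every batch 2 mouse of these diets lay above every batch 1 mouse. The difference was 0.76 (SE 0.07, adjusted p = 2.5e-07), a ratio of 1.70, and stayed at 0.43 after quantile normalization (adjusted p = 2.6e-04). It was called within each diet, at 0.69, 0.76 and 0.84 on the chimpanzee, fast food and cafeteria diets, where 0.686%, 6.78% and 5.86% of all probe sets were called.

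Gja1 held the widest difference among the members. Its probe set 1415801_at read 6.85 to 7.24 in the 9 mice of batch 1 and 7.37 to 8.80 in those of batch 2, with means of 7.09 ± 0.11 and 8.25 ± 0.40 (SD, n = 9). The groups did not overlap. The difference was 1.16 (SE 0.19, adjusted p = 9.9e-05), a ratio of 2.24, and 0.88 after quantile normalization (adjusted p = 0.0027). The other 4 tested probe sets of Gja1 rose by 0.45 to 0.73, and after quantile normalization 1 of these 4 was still called.

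Among the endfoot and glutamate genes, the 3 probe sets of Aqp4 rose by 0.61, 0.62 and 0.85, of which only the last was called after quantile normalization, at 0.71. The 2 probe sets of Glul parted: 1426236_a_at rose by 0.63 (SE 0.15, adjusted p = 0.0026), and 1426235_a_at differed by 0.03 (SE 0.11, adjusted p = 0.86). Both outcomes changed after quantile normalization, where the first, at 0.10, no longer passed (adjusted p = 0.17) and the second was called lower, at −0.32 (adjusted p = 0.0024). Slc1a2 was measured in opposite directions. Its main probe set read 9.78, 10.04 and 10.91 as lowest, median and highest in batch 1 and 10.77, 11.07 and 11.16 in batch 2, and rose by 0.84 (SE 0.14, adjusted p = 1.7e-04). Its probe set 1439940_at read 7.49, 7.79 and 8.37, then 6.86, 7.26 and 7.72, and fell by 0.57 (SE 0.12, adjusted p = 0.0013). Both calls and both directions held after quantile normalization, at 0.33 and −0.82. Which transcripts of Slc1a2 the probe sets read is not given in the annotation used here.

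The transcription factor Sox9 likewise had probe sets on both sides of 0, at 0.24 (adjusted p = 0.034) and, for the main probe set, at −0.13 (adjusted p = 0.22). Aldh1l1 at 0.18, Gjb6 at 0.26 and S100b at 0.19 and 0.37 did not pass with all 24 arrays in the fit. These calls depended on replicate 1 of pellet batch 2, which enters the estimate of the spread. Without it 19 of the 27 were called on the 3 diets (51% of all probe sets), with the same differences. The 4 gained were Aldh1l1 (adjusted p = 0.028), Gjb6 (0.029), 1434342_at of S100b (0.0074) and 1443749_x_at of Slc1a3 (0.0090). When all 6 pellet arrays were left out, Aldh1l1 (adjusted p = 0.034) and Gjb6 (0.041) passed too, in a fit whose share of all probe sets called is not given here. Signs of the main probe sets of Gfap, Aldh1l1, Gjb6 and S100b turned under quantile normalization.

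**Figure D3:**
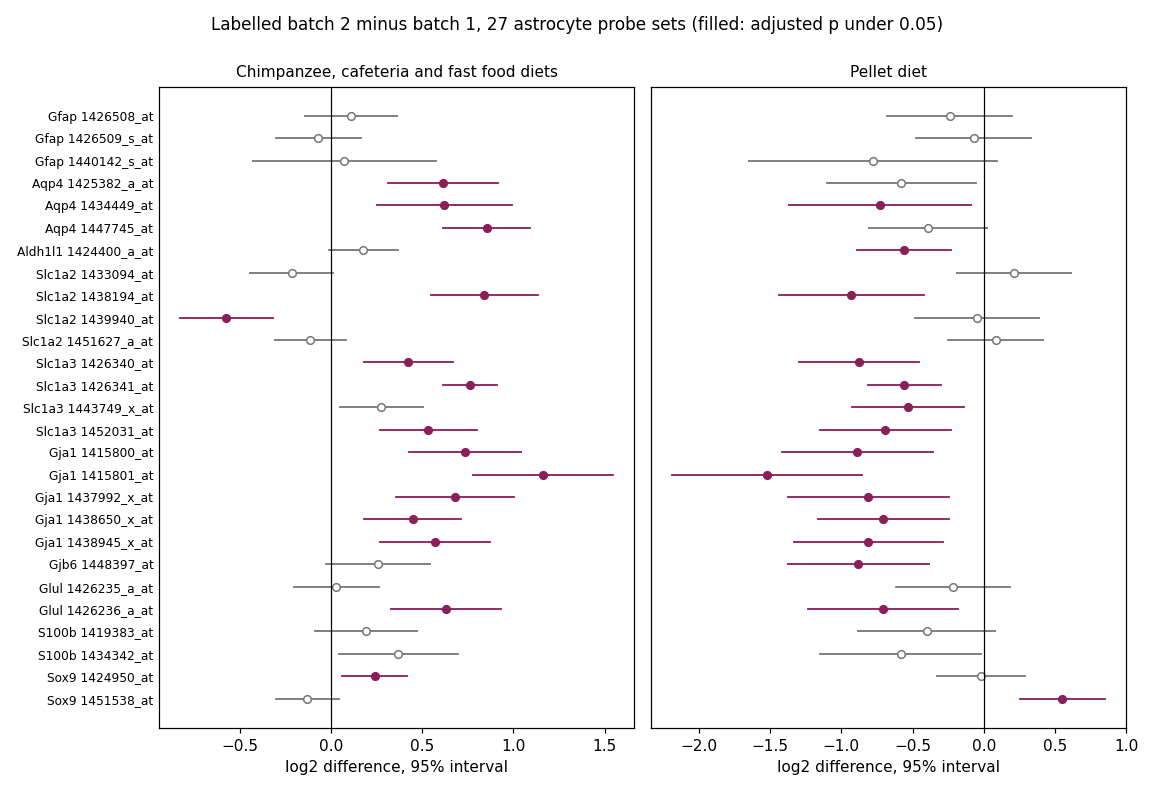
Log2 difference between labelled batch 2 and batch 1 with its 95% interval from limma (x axis; the panels differ in scale) for 27 astrocyte probe sets (y axis), on the chimpanzee, cafeteria and fast food diets on the left and on pellets on the right. Filled circles passed at an adjusted p under 0.05, 15 on each side, 14 of them above 0 on the left and 14 below 0 on the right; after quantile normalization 6 of 9 were above 0 on the left and 2 of 7 below 0 on the right.

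Over the whole array the batch difference grew with the level. Its median was 0.03 for probe sets with a mean level under 6, 0.20 from 6 to 8, 0.38 from 8 to 10 and 0.56 from 10 up, and 25.8%, 37.8%, 64.5% and 82.4% of them were called. Read against probe sets of its own range of levels, the difference of Gja1 1415801_at stood at percentile 99.6, that of Aqp4 1447745_at at 99.3, and those of the main probe sets of Slc1a3 and Slc1a2 at 95.6 and 95.2. At the other end, Slc1a2 1439940_at stood at percentile 0.763, Glul 1426235_a_at at 5.45 and the main probe set of Gfap at 10.7. The main probe sets of Glul and Gja1, at percentiles 64.2 and 75.0, differed between batches about as much as other bright probe sets did. The part of level and of 18S signal in these differences was not tested.

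**Figure D4:**
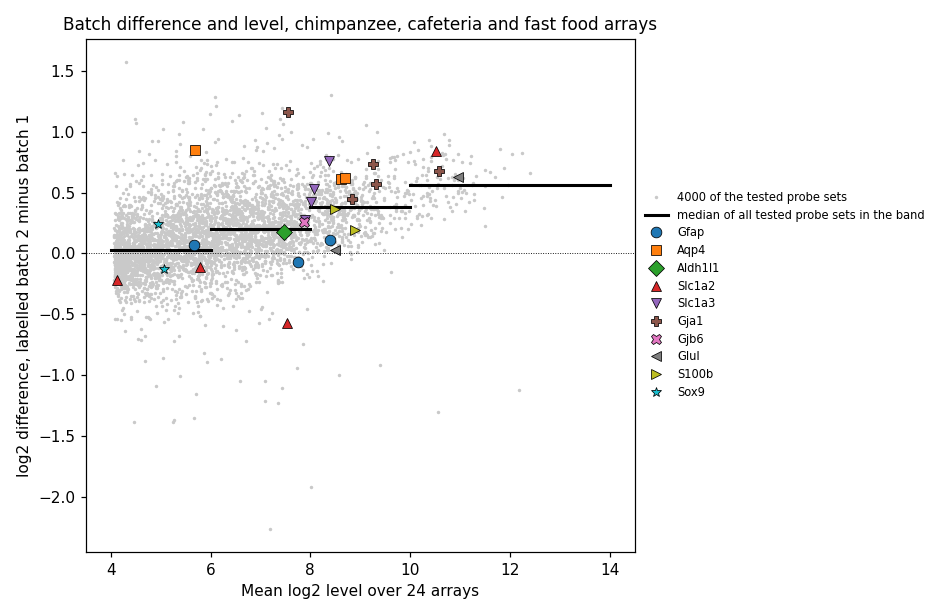
Log2 difference between labelled batch 2 and batch 1 on the chimpanzee, cafeteria and fast food diets (y axis) against the mean log2 level over 24 arrays (x axis). Grey points are 4000 of the tested probe sets, black lines the medians of all tested probe sets in 4 ranges of level, and symbols the 27 astrocyte probe sets. The lines climb from 0.03 to 0.56, with Gja1 1415801_at at 1.16 and Slc1a2 1439940_at at −0.57 far from theirs.

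On pellets the labelled batches ran the other way. Of the 27 probe sets, 15 were called, 14 lower in batch 2 and only the main probe set of Sox9 higher, where 61.2% of all probe sets were called, 50.6% lower and 10.6% higher. Gja1 1415801_at read 7.93, 8.14 and 7.91 in batch 1 and 5.22, 7.31 and 6.88 in batch 2, a difference of −1.52 (SE 0.32, adjusted p = 0.0022). The lowest of these came from the array that stood apart, and without it the difference was −0.89 (adjusted p = 0.0035). The main probe set of Slc1a2 read 10.90, 11.01 and 10.56, then 9.42, 9.98 and 10.27, a difference of −0.93 (SE 0.24, adjusted p = 0.0053) and of −0.69 without that array (adjusted p = 0.041). Sox9 read 4.91, 5.00 and 4.76, then 5.65, 5.10 and 5.59, and rose by 0.55 (SE 0.14, adjusted p = 0.0051). In each of these, 3 mice against 3, the batches did not overlap. The share of all probe sets that did the same on pellets was not counted. After quantile normalization 7 of the 27 were called on pellets, 5 higher and 2 lower in batch 2 (40.2% of all called), of which 3 had been called before, each with the same sign. These 3 were Gja1 1415801_at at −1.18, Slc1a3 1426340_at at −0.36 and the main probe set of Sox9 at 0.81, whereas the main probe set of Slc1a2, at −0.23, no longer passed (adjusted p = 0.079).

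Without the array that stood apart, 5 of the 27 were called on pellets (24% of all): the main probe sets of Slc1a2 and Sox9, 2 of Slc1a3 and 1 of Gja1. The pellet difference was tested against that of the other diets, and 18 of the 27 differed, 17 of them lower on pellets and Sox9 higher (69.1% of all called, 56.1% lower and 13% higher). After quantile normalization 12 differed, 7 lower and 5 higher (53.1% of all called). With the pellet batch labels exchanged, 0 of 27 and 0% of all probe sets were called in that test. Whether the labels or the mice differ cannot be told apart from these values.

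Other genes of the same cells were read with 1 probe set per gene. Of 30 further astrocyte genes, 29 were measured, of which 16 rose and 0 fell between batches on the 3 other diets, with a median of 0.35, where 33.3% of all features were called and their median was 0.14. The largest were Sparcl1, a secreted protein that acts at synapses, at 0.83, Slc4a4, a bicarbonate transporter, at 0.76, Aldoc, an aldolase, at 0.63, and Pla2g7, a phospholipase, at 0.53. Of 13 partners in glutamate handling, 8 rose and 0 fell, among them Got1 at 0.71 and Glud1 at 0.67, enzymes that interconvert glutamate and 2-oxoglutarate, and the metabotropic receptor Grm5 at 0.57. Of 10 partners in coupling and at the endfeet, 4 rose and 0 fell, among them the potassium channel genes Kcnj10, at 0.61, and Kcnj16, at 0.42. Of 26 genes linked to reactive astrocytes, 12 were measured, 11 lay below the floor and 3 had no probe set of their own. Stat3, a transcription factor of cytokine signalling, rose by 0.25, Tm4sf1 rose by 0.35 and Amigo2 fell by 0.31, and Vim, the filament partner of Gfap, at 0.17, did not pass.

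Markers of other cells were read in the same comparison, where 33.3% of all features were called. Among neuronal genes 11 of 14 rose and 0 fell (median 0.55), led by Snap25 at 0.85. Among oligodendrocyte genes 9 of 11 rose and 0 fell (median 0.47), led by Ermn at 0.87. Of 6 genes of their precursors 3 rose, of 9 microglial genes 1, of 6 endothelial genes 1, of 8 genes of ependyma and choroid plexus 2, with 1 that fell, and of 8 genes of Bergmann glia and cerebellum 2. The counts of all these gene lists were not set against features of like level. Over the whole array, the share of probe sets called grew with the level, from 25.8% to 82.4%. Counts for the lists after quantile normalization are not given here. The part of these cells in the batch differences of the members was not tested.

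The lists other than the members hold 125 measured genes, of which limma called 0 in the test of 4 diets (10 with an unadjusted p under 0.05; 0.0434% of all features called), 0 between human and chimpanzee diets (3 with an unadjusted p under 0.05; 0% called) and 0 between pellets and the others (22 with an unadjusted p under 0.05; 0.00723% called). Over all 21996 tested probe sets, rather than 1 per gene, 1189, 418 and 4943 had such an unadjusted p in these comparisons. The human diets minus the chimpanzee diet gave a median of 0.04 over the 29 astrocyte genes, with 18 above 0. Beside the Aqp4 values, the same comparison gave a median of 0.23 over 11 oligodendrocyte genes, all above 0, and of 0.39 over 8 genes of Bergmann glia and cerebellum, all above 0. The 8 genes of ependyma and choroid plexus were also all above 0, with a median of 0.11. Neuronal genes had a median of −0.04, with 6 of 14 above 0. Over all features the median was 0.0095, with 54.5% above 0. Gabra6, a receptor subunit of cerebellar granule cells, lay at 1.13 (SE 0.77) and Pcp2, of Purkinje cells, at 0.84 (SE 0.56), neither of which passed. How much cerebellum or white matter entered each sample was not tested.

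Mice of 1 diet and batch also varied among themselves, and members varied together to different degrees. After each array's group mean was taken off, the correlation between main probe sets had a median of 0.56 over the 45 pairs of members on 24 arrays and of 0.40 on the 18 arrays other than pellets, where it ran from −0.12 for Gfap with Slc1a2 to 0.98 for Gja1 with Glul. These are descriptions with no test, and the probe sets compared share each array's overall signal. The genes most like each member were taken over the 24 arrays, and their values on the 18 arrays without pellets follow. For Slc1a2 they were Ppp3r1, Oip5os1 and Syt1 (0.99, 0.98 and 0.98, and 0.99, 0.98 and 0.98 without pellets), for Gja1 Nars, Dynll2 and Tspyl4 (0.98 each, and 0.97, 0.97 and 0.96), and for Glul Morf4l2, Ttc3 and Ywhab (0.98 each, and 0.99, 0.98 and 0.99). These were nearly as close without pellets. Aqp4 varied most like Slc16a1, Ugt8a and Plekhh1 (0.95, 0.94 and 0.93, and 0.89, 0.87 and 0.81), and Gjb6 most like Fbxo44, Itpk1 and Acsl3 (0.94 each, and 0.90, 0.88 and 0.87). For Gfap the most alike were Bgn, Lman2 and Mrpl10 (0.88, 0.87 and 0.86, and 0.87, 0.85 and 0.86), for S100b Emc9, Ppp1r14a and Capns1 (0.93, 0.91 and 0.90, and 0.92, 0.91 and 0.90), and for Slc1a3 Fdps, Fads2 and Fuca1 (0.88, 0.88 and 0.83, and 0.86, 0.87 and 0.81). Likeness was lower without pellets for Aldh1l1, with Pcbp4, Thrsp and Tmem222 at 0.91 each and then at 0.75, 0.82 and 0.67, and for Sox9, with Nkd2, Eva1b and Rfc1 at 0.79, 0.78 and 0.76 and then at 0.72, 0.58 and 0.60.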

How the data were processed

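The deposited table holds log2 expression levels, made by the authors with rma from the “affy” package (background correction, quantile normalization and summary over the probes of a probe set, per the methods). Total RNA was extracted with Trizol, and labelled RNA of 1 hemisphere was put on each array. Diet, batch and replicate number came from the sample titles. The methods exclude 1 pellet array with degraded RNA without naming it, so that it is among the 24 arrays fitted here.

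Of 45101 probe sets, 64 controls and 932 with several genes were set aside, and so was 1 probe set that Slc1a2 shares with another gene. Those with a mean under 4.07, the median of the non-control probe sets, were not tested. The remaining 21996, or 1 probe set per gene (13839 features) for the gene lists, were fitted with limma 3.58.1 in R 4.3.3, diet and labelled batch as terms over all 24 arrays, or a mean for each diet and batch for the batch differences. Adjusted p-values are Benjamini-Hochberg values over all tested probe sets, with a threshold of 0.05. The scripts were tested on simulated data.

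The 10 members, the gene lists and the tests were chosen with earlier results of these data known. Named genes were the members, the 3 genes that varied most like each main probe set, and from each list up to 4 called genes per direction; Vim, Gabra6 and Pcp2 were named after their values were seen. Alternatives covered the filter, 1 probe set per gene, normalization, median centring, exchanged pellet batch labels, the arrays in the fit, the methods' two-way test, a replicate block, no batch term and each array left out. Plots used Python 3.11.15 and matplotlib 3.10.9. Precision is limited by the number of arrays.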

Additional observations from a re-analysis of the deposited data

Results flagged for a closer look

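Among 60 groups of arrays looked at (6 mice of a diet, or 9 mice of a batch on the other 3 diets, for the main probe set of each gene), 4 held an array far from the rest. Chance gives about 1 in 20, so that 4 of 60 lies near that rate. The rate is approximate only, since the groups share arrays and those of a diet hold both batches. For Gfap, 1 mouse of batch 2 lay at 7.89, where the next lowest lay at 8.34. For Aqp4, 1 chimpanzee mouse lay at 9.05, where the next highest lay at 8.47, and 1 pellet mouse at 7.14, where the next lowest lay at 8.39. For S100b, 1 mouse of batch 1 lay at 9.47, where the next highest lay at 8.80.

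The batch difference on pellets was set against that on the other 3 diets in limma, and 18 of the 27 probe sets passed, where 69.1% of all probe sets did. In Aqp4 the pellet difference minus the other was −1.19, −1.35 and −1.25, in Aldh1l1 it was −0.73, and in the main probe set of Slc1a2 it was −1.77. In Slc1a3 it was −1.30, −1.32, −0.81 and −1.22, and in Gja1 −1.62, −2.68, −1.49, −1.15 and −1.38. Gjb6 gave −1.14, Glul 1426236_a_at −1.33, S100b 1434342_at −0.95 and the main probe set of Sox9 0.68. After quantile normalization 12 probe sets passed (53.1% of all), and with the pellet batch labels exchanged 0 did (0% of all).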

How the results depend on the processing

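The 0 calls in the test of 4 diets, in the human diets against the chimpanzee diet and in each pair of diets other than pellets and fast food held under every alternative run. Between pellets and the other diets 3 probe sets passed with the pellet batch labels exchanged (15.1% of all probe sets). Between pellets and fast food 4 passed with these labels exchanged (16.1% of all probe sets), 1 when replicate 1 of pellet batch 2 was also left out, and 1 by the methods' two-way test. The shares of all probe sets beside these single calls are not given here. With 1 probe set per gene, the batch calls were 5 of 10 genes on the other diets (33.3% of all features), 8 of 10 on pellets (62.5%) and 8 of 10 for the difference between these (69.3%). Quantile normalization gave 9 of 27 on the other diets (23.2% of all probe sets) and 7 of 27 on pellets (40.2%). With labels exchanged the difference between pellets and other diets gave 0, also without replicate 1 of pellet batch 2, where pellets alone gave 5, as with the labels as given. With only the pellet arrays in the fit, the batch calls on pellets were 0, and the cause was not tested. The share of all probe sets called in that fit is not given here, so that this 0 is not read as a result about the members. Leaving out each array gave 5 calls (without replicate 1 of pellet batch 2, with 24% of all probe sets called) to 19 for the batches on pellets. The share of all probe sets beside the 19 is not given here. The pellet comparison with the other diets uses all arrays, so that the fit on compared diets is the same.

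Small differences changed sign. Under quantile normalization, the human diets minus the chimpanzee diet were −0.030 for Gfap and −0.013 for Sox9, pellets minus the others 0.026 for Gfap, 0.034 for Aqp4, 0.0018 for Aldh1l1 and 0.10 for Slc1a3, and batch 2 minus batch 1 −0.23 for Gfap, −0.070 for Aldh1l1, −0.032 for Gjb6 and −0.18 for S100b. Under median centring, the human diets minus the chimpanzee diet were −0.00231 for Gfap and −0.00698 for Sox9. With exchanged labels and without replicate 1 of pellet batch 2, pellets minus the others were 0.064 for Aqp4. Leaving out each array, the human diets minus the chimpanzee diet ranged from −0.11 to 0.079 for Gfap, −0.15 to 0.066 for Slc1a2, −0.084 to 0.026 for Gjb6, −0.0040 to 0.18 for Glul and −0.032 to 0.036 for Sox9. Pellets minus the others ranged from −0.29 to 0.16 for Aqp4, −0.40 to 0.017 for Slc1a2 and −0.27 to 0.024 for Slc1a3, each above 0 only without replicate 1 of pellet batch 2.

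Arrays of different diets that share a batch and replicate number did not deviate together: 12 of 36 such pairs correlated above 0.1, with a median of −0.03, beside −0.01 for pairs with other numbers. The methods spread littermates evenly over the diet groups, but the titles name no litter. Since the deviations cover the whole array, this check cannot tell whether equal numbers mark littermates. With the replicate block in place of batch, 0 of 27 probe sets were called in each diet comparison, as without it. By the methods' rule, 17 of the 27 were removed for a diet-batch interaction (12488 of all), and 0 of the 10 left had an unadjusted p under 0.01 for diet, against 2.16% of all left.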
